A study of Mus musculus with 27 samples.

Results

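The endoplasmic reticulum (ER) stress and unfolded protein genes described here were Hspa5, Hsp90b1, Calr, Pdia4, Pdia6, Dnajb9, Xbp1, Atf4, Ddit3 and Trib3. They were taken by gene symbol from the deposited expression matrix and made up 10 of its 24418 entries. The rule itself used symbols only, but the 10 genes were chosen with earlier results of these data known. Their counts set beside the shares of all genes below are therefore descriptions, not tests of an unselected set. FPKM is the number of fragments counted for a gene, scaled to transcript length and library size. All 10 genes passed the filter on low values, which asked for 1 FPKM or more in 3 or more libraries. The matrix came from bulk RNA sequencing of purified hematopoietic stem and progenitor cells (HSPCs), the immature cells that give rise to all blood lineages, of C57BL/6 mice. There were 27 libraries in 9 groups of 3. The groups were E12.5 FL and E16.5 FL, where E gives the embryonic day and FL is the field's usual abbreviation of fetal liver, then Perinatal BM and 1w, 3w, 4w, 6w and 8w BM (bone marrow, with the age in weeks), and E12.5 PL, an abbreviation that the labels do not spell out. No allele, transgene or agent is named for any group, and the markers used for purification, the sex, the perinatal day and any pooling of animals are not stated in the labels.

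The ER folds proteins that are secreted or placed in membranes, and when unfolded chains accumulate a signalling system called the unfolded protein response adjusts its capacity. Sensors in the ER membrane act through different transcription factors. IRE1 splices the messenger RNA of Xbp1, ATF6 is cut to release a transcription factor, and PERK phosphorylates eIF2 alpha, which lowers general translation while translation of Atf4 rises. Because other kinases phosphorylate eIF2 alpha as well, Atf4 and its targets also respond to amino acid shortage, heme shortage and viral RNA, which is called the integrated stress response. In hematopoietic stem cells the pathway is known from work on their response to damaged or unfolded protein. FPKM measures the amount of a gene's RNA, so neither the splicing of Xbp1 nor the translation of Atf4 was measured.

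Before the genes are described, the libraries that stood apart are given. E12.5 PL held little of the HSPC markers: the summed level of 15 HSPC genes was 1224 to 1732 FPKM in the 24 FL and BM libraries and 328 to 448 FPKM in E12.5 PL. Of 12 trophoblast genes, 10 had a mean of at least 1 FPKM in E12.5 PL, and their sum was 15.6 to 109.8 FPKM in FL and BM and 3244 to 3493 FPKM in E12.5 PL. The sum of 12 stromal and hepatocyte genes was 59.7 to 108 FPKM in FL and BM and 5446 to 12469 FPKM in E12.5 PL. The markers therefore went against the HSPC label for E12.5 PL, and its values are given last and apart throughout. Perinatal BM held more mast cell and basophil RNA, with 2339 to 5169.8 FPKM over 13 genes against 476 to 1092 FPKM in the other FL and BM libraries. In 8w BM, library 3 had an immediate-early sum (18 genes such as Fos and Egr1, which cells switch on within minutes of a stimulus) of 10019.7 FPKM, against 6071 and 3988 FPKM in libraries 1 and 2. FPKM summed to 519810 to 763033 per library, the total read counts are unknown, and the relative depth read from the lowest values was 0.688 to 1.60. The labels do not say whether libraries came from separate animals, so each p-value measures only the spread between these libraries.

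The promoters are shown first because they divide the 10 genes in a way that the measured levels can be set against. The ER stress response element, to which ATF6 binds together with NF-Y, reads CCAAT and CCACG with 9 bases of any kind between them. Each RefSeq window (GRCm38.p6) of 300 bases, running 250 bases before to 50 bases after the annotated start of a gene, was searched on both strands, and all 10 genes had a window. An exact match was present in 39 of 32851 windows of all genes (0.119%) and in the windows of Hspa5, Hsp90b1, Calr and Pdia6, 4 of the 10 genes. The pattern is a textbook one for ER stress genes and was chosen with the 10 genes known. The share over all windows therefore shows how rare the letters are and is not a test. The Hsp90b1 window held 2 exact matches, and it was the only one of the 32851 with 2 or more. The matched elements are written below 5′ to 3′ in the CCAAT to CCACG direction, with the matched fixed letters in capitals. Coordinates count from 1, and positions in brackets are relative to the RefSeq start.
Hspa5, chr2:34772025-34772043, plus strand (-65 to -47): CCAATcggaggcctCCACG
Hsp90b1, chr10:86705638-86705656, minus strand (-212 to -194): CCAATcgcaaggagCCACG
Hsp90b1, chr10:86705533-86705551, plus strand (-107 to -89): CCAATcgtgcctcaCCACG
Calr, chr8:84847075-84847093, plus strand (-162 to -144): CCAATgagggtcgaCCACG
Pdia6, chr12:17266491-17266509, plus strand (-98 to -80): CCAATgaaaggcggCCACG

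With 1 of the 10 fixed letters allowed to differ, the element was in 494 windows (1.5%), which added Pdia4 and Ddit3 and an additional copy in Hsp90b1. These are shown because they carry the element in the imperfect form, with the differing fixed letter left in lower case.
Hsp90b1, chr10:86705598-86705616, plus strand (-172 to -154): CCAATcggaactgtCCAgG
Pdia4, chr6:47813602-47813620, plus strand (-108 to -90): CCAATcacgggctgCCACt
Ddit3, chr10:127290702-127290720, minus strand (-91 to -73): CCAATcagaaagcggCACG
The windows of Dnajb9, Xbp1, Atf4 and Trib3 held neither form. A related element, ATTGG and CCACG with 1 base between them, was in 12 windows of 32851 (0.0365%), and TGACGTGG, which XBP1 and ATF6 bind, in 222 windows (0.676%). Both were in none of the 10 windows. TGATGNAA, the pattern to which ATF4 and C/EBP proteins bind as a pair, was in 1304 windows (3.97%) and among the 10 genes in that of Trib3, from 14 to 21 bases after the start. A match is a string of letters and not a measured site, and its lack says only that these letters are not in this window.

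The 250 bases before the start of Hspa5 and Hsp90b1, chaperones with different courses in FL and BM, are printed in the direction of each gene with the exact elements in capitals. Both stretches overlap the upstream end of the GENCODE gene model. The Hspa5 stretch has its element close to the start, while that of Hsp90b1 has the 2 exact copies in opposite orientation.
Hspa5, chr2:34771840-34772089, plus strand: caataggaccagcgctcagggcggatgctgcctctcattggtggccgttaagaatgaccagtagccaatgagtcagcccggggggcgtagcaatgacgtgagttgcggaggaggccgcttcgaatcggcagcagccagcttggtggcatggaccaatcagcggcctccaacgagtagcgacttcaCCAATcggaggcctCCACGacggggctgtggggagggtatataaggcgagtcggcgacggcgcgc
Hsp90b1, chr10:86705445-86705694, minus strand: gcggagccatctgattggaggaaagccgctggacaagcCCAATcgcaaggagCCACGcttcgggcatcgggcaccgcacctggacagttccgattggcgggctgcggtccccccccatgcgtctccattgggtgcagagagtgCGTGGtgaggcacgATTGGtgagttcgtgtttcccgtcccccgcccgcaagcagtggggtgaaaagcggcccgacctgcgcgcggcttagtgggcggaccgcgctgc

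The levels are given next, by role, in FPKM per library with the groups in order of age and E12.5 PL last. Gene positions are those of GENCODE M21 on GRCm38. In bulk RNA, fewer cells of a type and less RNA per cell cannot be told apart. Hspa5 (chr2:34771970-34777547, plus strand) encodes BiP, the main ER chaperone of the Hsp70 family, which also holds the stress sensors inactive while it is free. It had 278, 318 and 273 FPKM in E12.5 FL and 845, 757 and 553 FPKM in E16.5 FL. In the marrow it had 281, 291 and 328 FPKM in Perinatal BM, 324, 368 and 354 FPKM in 1w BM and 665, 671 and 701 FPKM in 3w BM. The E16.5 FL and 3w BM libraries all lay above those of the groups just before them. In the older marrow Hspa5 had 344, 397 and 307 FPKM in 4w BM, 681, 824 and 605 FPKM in 6w BM and 295, 284 and 520.1 FPKM in 8w BM. In E12.5 PL it had 1107, 1181 and 1302 FPKM. Hspa5 was thus high in E16.5 FL, 3w BM and 6w BM, which overlapped one another, and low in the groups between them, where 8w BM library 3 sat well above its partners. Its highest group mean outside E12.5 PL was 2.48 times the lowest.

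Dnajb9 (chr12:44205559-44210326, minus strand) encodes ERdj4, an ER cochaperone that brings BiP to IRE1 and to misfolded chains. Its levels were 29.1, 30.3 and 30.9 FPKM in E12.5 FL and 85.7, 65.4 and 65.9 FPKM in E16.5 FL. Marrow levels were 41.6, 45.1 and 48.7 FPKM in Perinatal BM, 35.9, 35.6 and 32.4 FPKM in 1w BM and 51.3, 60.4 and 54.8 FPKM in 3w BM. Its mean was lowest in E12.5 FL, whose libraries lay below those of 1w BM. Later levels were 66.3, 66.8 and 57.8 FPKM in 4w BM, 64.05, 71.7 and 63.8 FPKM in 6w BM and 32.1, 29.8 and 52.5 FPKM in 8w BM. E12.5 PL had 77.2, 88.5 and 82.98 FPKM. At 4w BM the libraries overlapped those of 3w BM, and neighbours in the order of its means from E12.5 PL through E16.5 FL, 6w BM and 4w BM to 3w BM overlapped.

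Hsp90b1 (chr10:86690209-86705509, minus strand) encodes the ER member of the Hsp90 family, a chaperone of integrins and Toll-like receptors. Its exons overlap those of a pseudogene on the other strand and of noncoding genes on its own, and no source states strand-specific counting. Fetal levels were 243, 211 and 203 FPKM in E12.5 FL and 188, 175 and 154 FPKM in E16.5 FL. In young marrow the levels were 146, 133 and 154 FPKM in Perinatal BM, 162, 156 and 189.5 FPKM in 1w BM and 257, 216 and 235 FPKM in 3w BM. E12.5 FL and 3w BM were the highest groups after E12.5 PL and overlapped each other. From then on the levels were 133, 194 and 140.0 FPKM in 4w BM, 157, 150.3 and 154 FPKM in 6w BM and 151, 144 and 183 FPKM in 8w BM. E12.5 PL, with 584, 707 and 721 FPKM, lay above every other library. Outside E12.5 PL the highest group mean was 1.64 times the lowest.

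Pdia4 (chr6:47796141-47813430, minus strand) and Pdia6 (chr12:17266545-17284770, plus strand) encode protein disulfide isomerases, which form and rearrange disulfide bonds. Pdia4 averaged 57.2 ± 4.95 FPKM in E12.5 FL, 44.1 ± 1.84 FPKM in E16.5 FL and 37.6 ± 6.79 FPKM in Perinatal BM (SD, n = 3 each, as in all means below). It averaged 48.7 ± 5.53 FPKM in 1w BM, 67.7 ± 7.03 FPKM in 3w BM, 42.1 ± 4.4 FPKM in 4w BM, 42.3 ± 4.34 FPKM in 6w BM and 50.6 ± 6.61 FPKM in 8w BM, and 134 ± 17.2 FPKM in E12.5 PL. Apart from E12.5 PL, which was separate, every neighbour in the order of the Pdia4 means overlapped the next. Pdia6 had 155, 149.7 and 148 FPKM in E12.5 FL and 118, 115 and 102 FPKM in E16.5 FL. In the marrow its means ran from 113 ± 25.6 FPKM in 4w BM and 113 ± 13.3 FPKM in 6w BM to 157 ± 16.8 FPKM in 3w BM, and E12.5 PL had 397, 541 and 582 FPKM. Among the 10 genes Pdia6 varied least outside E12.5 PL, with a highest group mean 1.41 times the lowest. Its exons overlap those of Atp6v1c2 on the other strand.

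Calr (chr8:84841850-84846934, minus strand) encodes calreticulin, a calcium-binding chaperone of glycoproteins. Its fetal levels were 438, 463 and 445 FPKM in E12.5 FL and 546, 476 and 390.5 FPKM in E16.5 FL. Those of young marrow were 447, 427 and 407 FPKM in Perinatal BM, 509, 512 and 597 FPKM in 1w BM and 822, 676 and 763 FPKM in 3w BM. The 3w BM libraries lay above all others of FL and BM. Means of 473 ± 125 FPKM in 4w BM, 585 ± 20.3 FPKM in 6w BM and 522 ± 28.1 FPKM in 8w BM followed, where 4w BM library 2, at 617 FPKM, stood far above its partners. In E12.5 PL Calr had 721, 822 and 843 FPKM, which overlapped 3w BM.

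Xbp1 (chr11:5520659-5525893, plus strand) encodes the transcription factor that IRE1 activates by splicing. It had 20.3, 26.3 and 21.9 FPKM in E12.5 FL and 51.9, 39.4 and 35.7 FPKM in E16.5 FL. Marrow values were 33.7, 29.4 and 33.2 FPKM in Perinatal BM, 35.2, 35.9 and 41.5 FPKM in 1w BM and 61.4, 61.02 and 61.2 FPKM in 3w BM. The 3w BM libraries were nearly equal, and E12.5 FL lay below every other group. Older marrow had 36.4, 39.3 and 36.3 FPKM in 4w BM, 52.2, 69.2 and 46.9 FPKM in 6w BM and 38.6, 37.1 and 60.4 FPKM in 8w BM. E12.5 PL had 88.6, 129 and 114 FPKM, above all FL and BM libraries. Xbp1 is also the factor that plasma cells need for secretion. The summed level of 13 plasma cell and B-lineage genes was 122 to 306 FPKM in E16.5 FL and 45.99 to 61.05 FPKM in 3w BM but 23.9 to 28.7 FPKM in 6w BM, where Xbp1 overlapped 3w BM, and its part in the Xbp1 levels was not tested.

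Atf4 (chr15:80255184-80257541, plus strand) encodes the main transcription factor of the integrated stress response. It was tight in E12.5 FL, with 179, 179 and 181 FPKM, and had 412, 334 and 279 FPKM in E16.5 FL. In marrow it had 196, 211 and 221 FPKM in Perinatal BM, 169, 219 and 184 FPKM in 1w BM and 337, 339 and 304 FPKM in 3w BM. Atf4 followed the same high and low groups as Hspa5 up to 3w BM. It then had 274, 271 and 250.5 FPKM in 4w BM, 423, 446 and 374 FPKM in 6w BM and 166, 164 and 252 FPKM in 8w BM. E12.5 PL, with 368, 448 and 431 FPKM, overlapped 6w BM. The 4w BM libraries lay below those of E16.5 FL, 3w BM and 6w BM, and above all of E12.5 FL, Perinatal BM, 1w BM and 8w BM except 8w BM library 3.

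Ddit3 (chr10:127290774-127296288, plus strand) encodes CHOP, a transcription factor downstream of ATF4 that is linked to cell death under lasting stress. Exons of Mars and Gm4189 overlap it on the other strand, so that without strand their reads cannot be told apart. Ddit3 had 23.4, 23.8 and 21.8 FPKM in E12.5 FL and 94.7, 65.6 and 47.7 FPKM in E16.5 FL. It had 15.4, 12.8 and 28.02 FPKM in Perinatal BM, 10.03, 20.98 and 14.4 FPKM in 1w BM and 48.8, 66.4 and 39.6 FPKM in 3w BM. The spread within groups was wide, and the highest value of the series was in an E16.5 FL library. Ddit3 then had 26.2, 31.8 and 18.4 FPKM in 4w BM, 33.8, 64.99 and 35.9 FPKM in 6w BM and 13.7, 12.3 and 25.4 FPKM in 8w BM. Its E12.5 PL values were 34.8, 37.5 and 37.7 FPKM. Ddit3 was the only one of the 10 genes whose mean was not highest in E12.5 PL, and E16.5 FL, 3w BM, 6w BM and E12.5 PL, its highest groups, each overlapped the next. Its highest mean in FL and BM was 4.58 times its lowest.

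Trib3 (chr2:152337422-152344032, minus strand) encodes a pseudokinase induced by ATF4 and CHOP that binds the kinase AKT. It was under 1 FPKM in E12.5 FL, with 0.637, 0.349 and 0.255 FPKM, and had 3.62, 2.38 and 2.19 FPKM in E16.5 FL. In BM its libraries lay between 0.781 and 2.71 FPKM, and all BM groups overlapped their neighbours in the order of the means. E12.5 PL had 5.32, 7.94 and 6.77 FPKM, above all other libraries. At these levels the added 1 FPKM of the log2 scale shrinks the folds.

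**Figure D1:**
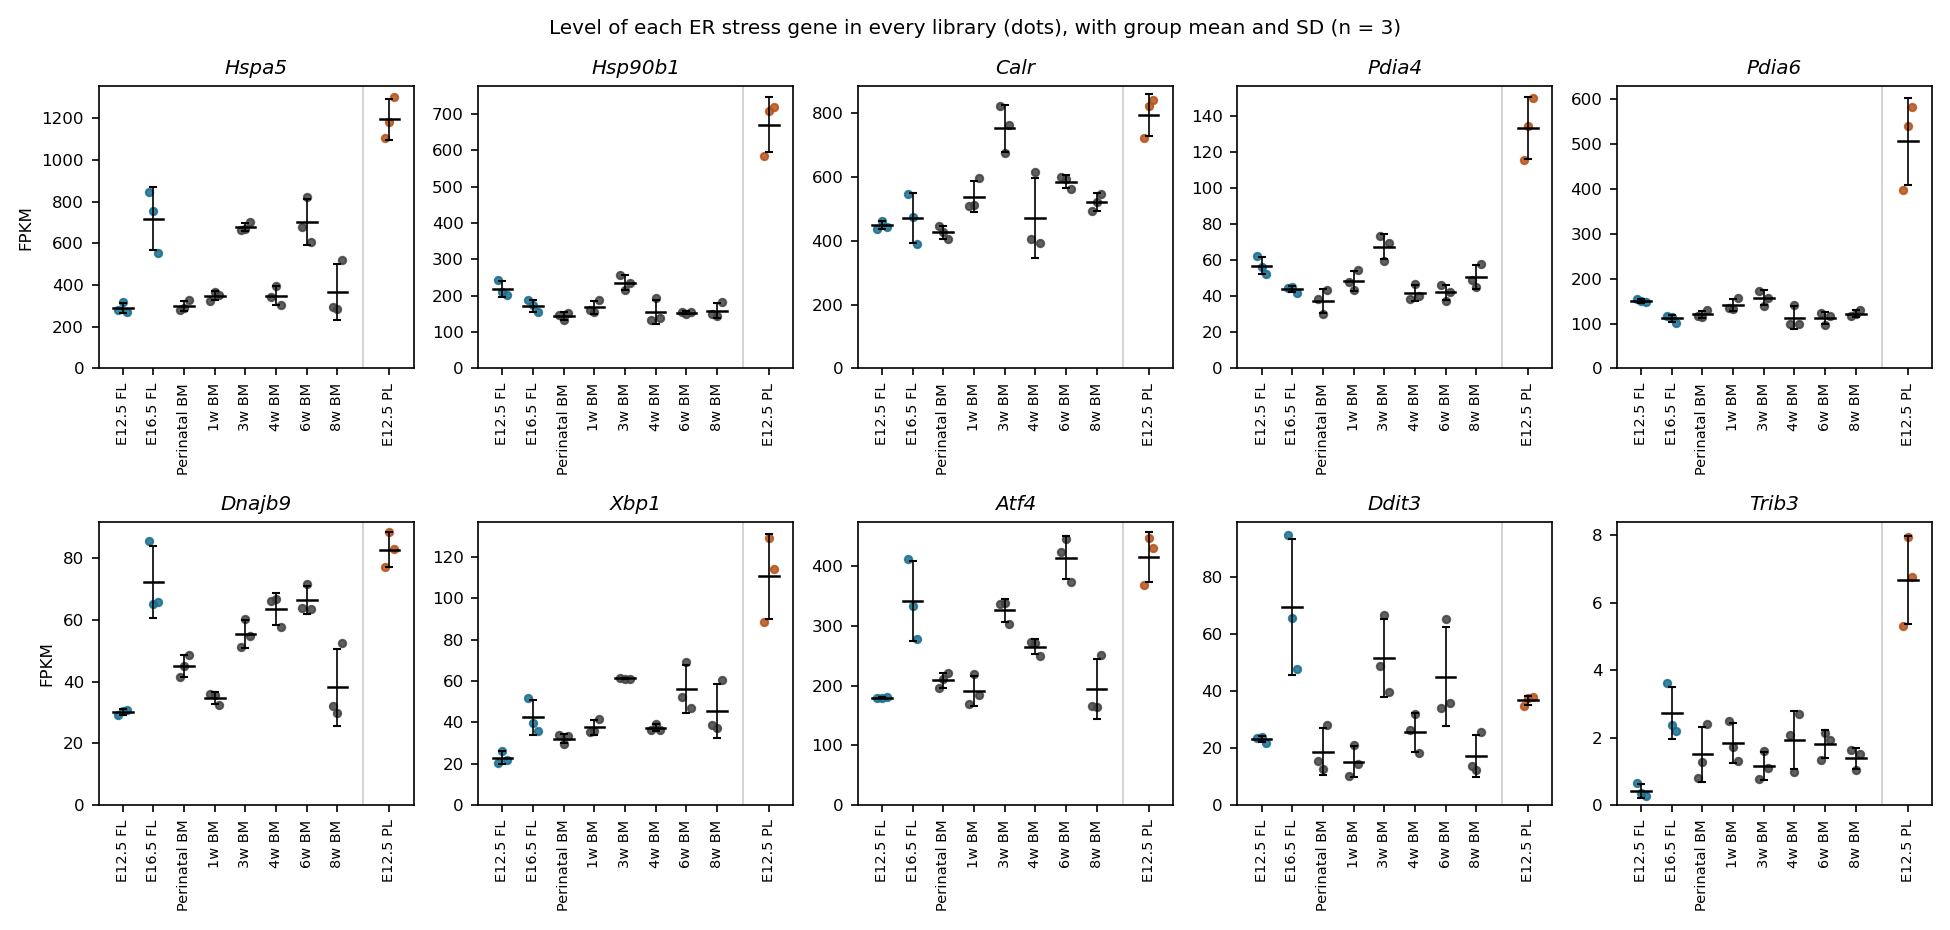
FPKM of the 10 genes in each library (dots) with the mean and SD of each group of 3, with FL in blue, BM in grey and E12.5 PL in orange at the right. Among the FL and BM groups, all 10 genes had their highest mean in E16.5 FL, 3w BM or 6w BM. That mean was 1.41 to 1.80 times the lowest for Hsp90b1, Calr, Pdia4 and Pdia6. For the other genes it was 2.31 to 6.60 times the lowest.

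The groups were then compared in turn, with the fit made over all 13350 genes that passed the filter and differences on the log2(FPKM + 1) scale ± SE. A change is called at an adjusted p under 0.05 (limma, Benjamini-Hochberg). Neighbouring comparisons share a group and so are not independent. E16.5 FL against E12.5 FL asked how the program of liver HSPCs changed over fetal growth. Of the 10 genes, 6 rose and 3 fell, where 34.6% of all genes were called (19% higher and 15.6% lower). The risers were Hspa5 (1.29 ± 0.17, adjusted p = 8.16e-06), its cochaperone Dnajb9 (1.22 ± 0.14, adjusted p = 9.47e-07) and all 4 regulators. Xbp1 was higher by 0.85 ± 0.17, adjusted p = 0.00049. Atf4 was higher by 0.90 ± 0.14, adjusted p = 3.67e-05. Both factors thus rose with the chaperone. Ddit3 differed by 1.5 ± 0.32, adjusted p = 0.000938, and Trib3 by 1.39 ± 0.24, adjusted p = 0.000115. Falls were seen in Hsp90b1 (-0.34 ± 0.12, adjusted p = 0.036), Pdia4 (-0.37 ± 0.13, adjusted p = 0.0286) and Pdia6 (-0.44 ± 0.14, adjusted p = 0.0158), and Calr had 0.06 ± 0.13, adjusted p = 0.8. Chaperones of the same compartment therefore moved in opposite directions. The windows of Hspa5, Hsp90b1 and Pdia6 hold the exact element, and its part was not tested. The groups did not overlap for 9 of the 10 genes, against 52.9% of all genes, and the median difference was 0.88 over the 10 genes and 0.01 over all genes. The small falls kept their direction with any 1 library left out, at -0.41 to -0.27 for Hsp90b1, -0.42 to -0.30 for Pdia4 and -0.48 to -0.37 for Pdia6, but some calls were lost. The Hsp90b1 call was lost without E12.5 FL 1 or 2 or E16.5 FL 2 or 3 (adjusted p from 0.0591 to 0.156), that of Pdia4 without E12.5 FL 1 or 2 or E16.5 FL 1 or 3 (from 0.0565 to 0.119), and that of Pdia6 without E16.5 FL 3 (0.0712). Among the E16.5 FL libraries, number 1 was highest and number 3 lowest for all of the 10 genes but Pdia4 and Dnajb9.

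Other genes of the pathway, from lists that leave the 10 genes out, moved less evenly. Of 20 genes of ER-associated degradation, which sends misfolded chains to the proteasome, 5 rose and none fell in E16.5 FL. Herpud1, a ubiquitin-like ER protein, averaged 57.9 ± 13.2 FPKM in E16.5 FL and 25.3 ± 2.41 FPKM in E12.5 FL, and the ubiquitin-conjugating enzyme Ube2j1 24.6 ± 3.92 FPKM in E16.5 FL and 13.8 ± 0.699 FPKM in E12.5 FL. Of 22 other ER folding genes, 2 rose and 3 fell, with a median difference of -0.11. Among 18 sensors and regulators, 6 rose and 1 fell, against 4 that rose and 1 that fell after scaling to TPM. The eIF2 alpha phosphatase subunit Ppp1r15a, a feedback inhibitor of the response, averaged 104 ± 7.12 FPKM in E16.5 FL and 55.4 ± 7.68 FPKM in E12.5 FL. Of 31 targets of ATF4 and CHOP, 8 rose and 9 fell. Risers included the mTORC1 inhibitor Ddit4, with 27.7 ± 6.07 FPKM in E16.5 FL and 5.79 ± 1.13 FPKM in E12.5 FL, and fallers the serine synthesis enzyme Psat1, with 92.6 ± 4.09 FPKM in E16.5 FL and 130.0 ± 2.34 FPKM in E12.5 FL. Of the 18 immediate-early genes, 10 rose and 1 fell, and their sums were 3051, 3473 and 3253 FPKM in E16.5 FL and 1932, 2196 and 1721 FPKM in E12.5 FL. Markers of other blood cells moved at the same step. Of 13 plasma cell and B lineage genes 12 were higher, with sums of 122 to 306 FPKM in E16.5 FL and 41.2 to 49.9 FPKM in E12.5 FL. In E12.5 FL the B cell factor gene Pax5 was listed at 0. Of 10 neutrophil genes 8 were higher, with sums of 925 to 1938 FPKM in E16.5 FL and 764 to 904 FPKM in E12.5 FL, and the granule genes Ngp and Camp were listed at 0 in E12.5 FL. Of 10 macrophage genes 6 were higher, with sums of 52.7 to 59.6 FPKM in E16.5 FL and 29.3 to 34.8 FPKM in E12.5 FL. Of 7 erythroid genes tested 5 were higher, and the 9 in the table summed to 58.6 to 83.5 FPKM in E16.5 FL and 11.5 to 34.8 FPKM in E12.5 FL. Of 12 cytosolic heat shock genes 10 were lower, with sums of 4374 to 4824 FPKM in E16.5 FL and 5567 to 5803 FPKM in E12.5 FL. The part of these lists in the differences was not tested.

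Perinatal BM against E16.5 FL compared HSPCs around birth in the marrow with those of the late fetal liver. Hspa5, Dnajb9, Atf4 and Ddit3 fell, the other 6 genes were not called, and 28.4% of all genes were called (14.2% higher and 14.2% lower). The difference was -1.24 ± 0.17, adjusted p = 1.84e-05 for Hspa5 and -0.66 ± 0.14, adjusted p = 0.00111 for Dnajb9. For Atf4 it was -0.69 ± 0.14, adjusted p = 0.000775. For Ddit3 it was -1.85 ± 0.32, adjusted p = 0.000146. All 4 are genes that had risen in E16.5 FL against E12.5 FL, a comparison that uses the same E16.5 FL libraries. Trib3 had -0.61 ± 0.24, adjusted p = 0.0587, and without Perinatal BM 3 its adjusted p was 0.0107. Xbp1 had -0.37 ± 0.17, adjusted p = 0.101. Hsp90b1, Pdia4, Pdia6 and Calr lay between -0.26 and 0.11. The median difference was -0.49 over the 10 genes and 0 over all genes, and the groups did not overlap for 6 genes, against 38% of all genes. In contrast to the fall of these genes, 8 of the 20 degradation genes rose and 2 fell, and the ubiquitin ligase Syvn1 was lower, with 14.4 ± 1.77 FPKM in Perinatal BM and 23.3 ± 4.0 FPKM in E16.5 FL. Of the 22 folding genes 3 rose, among them the ER oxidase Ero1l with 37.7 ± 1.06 FPKM in Perinatal BM and 23.3 ± 1.54 FPKM in E16.5 FL, and 1 fell. Of the 31 ATF4 and CHOP targets 3 rose and 4 fell. Mast cell and basophil RNA was higher in Perinatal BM, with 2339 to 5169.8 FPKM over 13 genes, against 555 to 782 FPKM in E16.5 FL. Of 13 plasma cell and B lineage genes 11 were lower, with sums of 38.3 to 119 FPKM in Perinatal BM and 122 to 306 FPKM in E16.5 FL. Of 10 macrophage genes 1 was higher and 5 were lower, with sums of 50.5 to 57.3 FPKM in Perinatal BM and 52.7 to 59.6 FPKM in E16.5 FL. Of 18 immediate-early genes 7 were higher and 1 was lower, with sums of 3824 to 5013 FPKM in Perinatal BM and 3051 to 3473 FPKM in E16.5 FL, and of 12 cytosolic heat shock genes 1 was higher and 7 were lower, with sums of 3608 to 4203 FPKM in Perinatal BM and 4374 to 4824 FPKM in E16.5 FL. Their part was not tested.

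Between 1w BM and Perinatal BM the genes were nearly level. Pdia4 rose (0.37 ± 0.13, adjusted p = 0.0448), no gene fell, and 8.6% of all genes were higher and 8.97% lower (9.13% higher and 5.75% lower after scaling to TPM). The Pdia4 libraries of the groups overlapped, and the call was lost without Perinatal BM 1 or 2 or 1w BM 1 or 3, at adjusted p of 0.0694 to 0.254. Calr had 0.33 ± 0.13, adjusted p = 0.0827 and Dnajb9 -0.37 ± 0.14, adjusted p = 0.0708. Hspa5, with 0.22 ± 0.17, adjusted p = 0.432, was not called, and its libraries overlapped. For 5 other genes, Hsp90b1, Calr, Pdia6, Dnajb9 and Xbp1, the libraries of the groups did not overlap, against 32.7% of all genes. The medians were 0.22 over the 10 genes and -0.0013 over all genes. Of the folding list, 3 of 22 rose and 2 fell, and of the degradation list 3 of 20 fell. The ER chaperone Hyou1, a nucleotide exchange factor of BiP, averaged 43.05 ± 4.98 FPKM in 1w BM and 32.2 ± 2.14 FPKM in Perinatal BM. Among the ATF4 and CHOP targets, 3 of 31 rose and 6 fell, including Ddit4 with 11.3 ± 3.16 FPKM in 1w BM and 21.8 ± 5.8 FPKM in Perinatal BM. Of 13 mast cell and basophil genes 10 were lower, with sums of 822 to 1092 FPKM in 1w BM and 2339 to 5169.8 FPKM in Perinatal BM. Of 18 immediate-early genes 9 were lower, with sums of 2725 to 3779 FPKM in 1w BM and 3824 to 5013 FPKM in Perinatal BM. Their part was not tested.

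In 3w BM against 1w BM 8 of the 10 genes rose and none fell, where 10.4% of all genes were called, 5.69% higher and 4.76% lower (3.15% higher and 4.37% lower after scaling to TPM). All chaperones of the set but Pdia6 were among them. Hspa5 rose by 0.96 ± 0.17, adjusted p = 0.00102, and Dnajb9 by 0.66 ± 0.14, adjusted p = 0.00356. Hsp90b1 rose by 0.48 ± 0.12, adjusted p = 0.0156. Calr rose by 0.48 ± 0.13, adjusted p = 0.0215, and Pdia4 by 0.47 ± 0.13, adjusted p = 0.0205. The disulfide isomerase Pdia6 had 0.15 ± 0.14, adjusted p = 0.552. Of the regulators, Ddit3 moved furthest, by 1.73 ± 0.32, adjusted p = 0.00109. Atf4 rose by 0.78 ± 0.14, adjusted p = 0.000908, and Xbp1 by 0.69 ± 0.17, adjusted p = 0.0098. Trib3, the ATF4 and CHOP target, was not called, with -0.39 ± 0.24, adjusted p = 0.336, and its libraries overlapped. The groups did not overlap for 8 genes, against 34.7% of all genes, and the medians were 0.57 over the 10 genes and -0.0046 over all. Without 1w BM 1, 1w BM 2 or 3w BM 1, 5 genes were called, because Hsp90b1, Calr and Pdia4 missed the threshold (adjusted p from 0.065 to 0.1). Calr and Pdia4 missed it without 3w BM 3 too.

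Of the pathway genes outside the 10, 7 of 22 folding genes, 5 of 20 degradation genes and 3 of 20 genes of the Sec61 translocon and signal peptide processing rose, and none of these lists had a gene that fell. Their medians were 0.18, 0.13 and 0.08, in that order. After scaling to TPM 5, 2 and 2 rose. Hyou1 averaged 69.9 ± 10.03 FPKM in 3w BM and 43.05 ± 4.98 FPKM in 1w BM, and the chaperone Creld2 37.5 ± 6.34 FPKM in 3w BM and 23.3 ± 2.14 FPKM in 1w BM. Herpud1 averaged 85.7 ± 6.35 FPKM in 3w BM and 37.2 ± 4.92 FPKM in 1w BM. Syvn1, the ubiquitin ligase, averaged 24.7 ± 1.0 FPKM in 3w BM and 15.7 ± 0.692 FPKM in 1w BM. Of the sensors and regulators 2 of 18 rose and 1 fell, and none of the 18 was called after scaling to TPM. Ern1, which encodes the sensor IRE1, averaged 20.9 ± 2.55 FPKM in 3w BM and 13.7 ± 1.02 FPKM in 1w BM. Of the 31 ATF4 and CHOP targets 5 rose and 1 fell. The death gene Bcl2l11, a target of CHOP, averaged 31.3 ± 2.44 FPKM in 3w BM and 10.1 ± 2.15 FPKM in 1w BM, whereas the asparagine synthetase gene Asns, a classical ATF4 target, averaged 11.4 ± 0.836 FPKM in 3w BM and 17.4 ± 1.64 FPKM in 1w BM. At the same step 13 of the 18 immediate-early genes rose, with sums of 7291, 6976 and 9080.5 FPKM in 3w BM and 2814, 3779 and 2725 FPKM in 1w BM. Of 10 macrophage genes 6 were higher, with sums of 73.05 to 88.2 FPKM in 3w BM and 42.9 to 57.1 FPKM in 1w BM. Of 10 neutrophil genes 5 were lower, with sums of 3268 to 3560.5 FPKM in 3w BM and 3815 to 5953 FPKM in 1w BM. Of 12 cytosolic heat shock genes 5 were higher, with sums of 4834 to 5045 FPKM in 3w BM and 3908 to 4089.6 FPKM in 1w BM. Their part was not tested.

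In 4w BM against 3w BM, 6 of the 10 genes fell and none rose. Of all genes, 9.28% were called, 4.72% higher and 4.56% lower (4.77% higher and 1.62% lower after scaling to TPM). All chaperones but Dnajb9 were among those that fell. The differences were -0.96 ± 0.17, adjusted p = 0.00263 for Hspa5 and -0.61 ± 0.12, adjusted p = 0.00466 for Hsp90b1. Calr had -0.70 ± 0.13, adjusted p = 0.00328, the isomerase Pdia4 -0.67 ± 0.13, adjusted p = 0.00328 and Pdia6 -0.49 ± 0.14, adjusted p = 0.0259. Of the regulators Xbp1 fell (-0.70 ± 0.17, adjusted p = 0.0122). Ddit3 had -0.99 ± 0.32, adjusted p = 0.0508 and was called without 4w BM 2 (adjusted p = 0.0342). Atf4 had -0.30 ± 0.14, adjusted p = 0.192, Dnajb9 0.19 ± 0.14, adjusted p = 0.439 and Trib3 0.41 ± 0.24, adjusted p = 0.306. The medians were -0.64 over the 10 genes and 0.0039 over all, and 7 genes had groups that did not overlap, against 29.9% of all genes. In 4w BM, library 2 was the highest for all of the 10 genes but Atf4 and Trib3. Without 3w BM 1, 4w BM 1 or 4w BM 3, 4 genes were called, since Pdia6 (adjusted p up to 0.139) and Xbp1 (up to 0.0557) missed the threshold, and Pdia6 missed it without 3w BM 3 too. Of the pathway lists, 9 of 22 folding genes, 6 of 20 degradation genes and 5 of 20 translocon genes fell and none rose, against 8, 2 and 3 that fell after scaling to TPM. Manf, a secreted ER stress protein, averaged 37.4 ± 6.49 FPKM in 4w BM and 68.6 ± 2.42 FPKM in 3w BM, and Herpud1 48.4 ± 4.14 FPKM in 4w BM and 85.7 ± 6.35 FPKM in 3w BM. Of the ATF4 and CHOP targets 2 of 31 rose and 9 fell, against 4 that fell after scaling to TPM. Of 13 plasma cell and B lineage genes 6 were lower, with sums of 27.2 to 35.01 FPKM in 4w BM and 45.99 to 61.05 FPKM in 3w BM, and of 10 neutrophil genes 5 were lower, with sums of 913 to 2770.1 FPKM in 4w BM and 3268 to 3560.5 FPKM in 3w BM. Of 12 cytosolic heat shock genes 5 were lower, with sums of 3763 to 4176 FPKM in 4w BM and 4834 to 5045 FPKM in 3w BM. The immediate-early sums were 7154, 6664 and 7144 FPKM in 4w BM and 7291, 6976 and 9080.5 FPKM in 3w BM. The part of these lists was not tested.

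6w BM against 4w BM was the comparison with the fewest genes called over the whole table. Hspa5 and Atf4 rose and no gene fell, while 3.94% of all genes were called, 2.59% higher and 1.35% lower (1.23% higher and 1.11% lower after scaling to TPM). Hspa5 rose by 1.0 ± 0.17, adjusted p = 0.00155, and Atf4 by 0.64 ± 0.14, adjusted p = 0.00955. Xbp1 had 0.56 ± 0.17, adjusted p = 0.0644, and Ddit3 0.76 ± 0.32, adjusted p = 0.214. Hsp90b1, Pdia4 and Pdia6 had differences of 0.0015, 0.01 and 0.01, so no difference in these chaperones was detected where Hspa5 rose. Calr had 0.34 ± 0.13, adjusted p = 0.177. The libraries did not overlap for 4 genes, against 20.6% of all genes, and the medians were 0.20 over the 10 genes and -0.0023 over all. The Atf4 call was lost without 4w BM 3 (adjusted p = 0.0507) or 6w BM 2 (0.0588), whereas Calr was gained without 4w BM 2 (0.00644) and Xbp1 without 6w BM 3 (0.0463). None of the 22 folding genes was called, and 1 of 20 degradation genes rose, Herpud1 with 85.5 ± 31.5 FPKM in 6w BM and 48.4 ± 4.14 FPKM in 4w BM. Ppp1r15b, the constitutive partner of the eIF2 alpha phosphatase, averaged 67.3 ± 11 FPKM in 6w BM and 39.8 ± 2.49 FPKM in 4w BM, and the death gene Bbc3 59.5 ± 28.02 FPKM in 6w BM and 15.1 ± 1.33 FPKM in 4w BM. Of the immediate-early genes 6 of 18 rose, with sums of 12584, 17525 and 11127 FPKM in 6w BM, the highest of all groups, and 7154, 6664 and 7144 FPKM in 4w BM. Of 12 cytosolic heat shock genes 4 were higher and none was lower, with sums of 4202 to 4404 FPKM in 6w BM and 3763 to 4176 FPKM in 4w BM. The part of both lists in the rise of Hspa5 and Atf4 was not tested.

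In 8w BM against 6w BM, Hspa5, Dnajb9, Atf4 and Ddit3 fell and none rose. Of all genes, 8.18% were called, 2.97% higher and 5.21% lower (3.44% higher and 2.98% lower after scaling to TPM). The difference was -0.98 ± 0.17, adjusted p = 0.000691 for Hspa5 and -0.83 ± 0.14, adjusted p = 0.000417 for Dnajb9. Atf4 had -1.12 ± 0.14, adjusted p = 2.52e-05, and Ddit3 -1.35 ± 0.32, adjusted p = 0.00856. These 4 genes are the ones that fell in Perinatal BM against E16.5 FL, which shares no library with this comparison. Hsp90b1 (0.04 ± 0.12, adjusted p = 0.915), Pdia4 (0.25 ± 0.13, adjusted p = 0.263) and Pdia6 (0.12 ± 0.14, adjusted p = 0.684) were not called. The medians were -0.27 over the 10 genes and 0.01 over all, and 5 genes had groups that did not overlap, against 26.4% of all genes. Library 3 of 8w BM, which held the high immediate-early sum, was also the highest of its group for all genes but Trib3. Without it the differences were larger, at -1.27 for Hspa5 and -1.32 for Atf4, and Xbp1 was called at -0.54 (adjusted p = 0.0417). Ddit3 lost its call without 6w BM 2 (0.0897) or 8w BM 2 (0.0628). In a fit of these 6 libraries alone, Atf4 was called and the other 3 had adjusted p of 0.0553 for Hspa5, 0.0535 for Dnajb9 and 0.0533 for Ddit3. No folding gene was called, 3 of 20 degradation genes fell, and of the ATF4 and CHOP targets 1 of 31 rose and 5 fell. Ppp1r15a averaged 79.4 ± 18.2 FPKM in 8w BM and 157 ± 13.9 FPKM in 6w BM. Bbc3 averaged 15.2 ± 6.05 FPKM in 8w BM and 59.5 ± 28.02 FPKM in 6w BM. Of the 18 immediate-early genes 16 fell, with sums of 6071, 3988 and 10019.7 FPKM in 8w BM and 12584, 17525 and 11127 FPKM in 6w BM. Of 10 macrophage genes 9 were higher, with sums of 139 to 216 FPKM in 8w BM and 67.4 to 82.2 FPKM in 6w BM. Of 12 cytosolic heat shock genes 5 were lower and none was higher, with sums of 3664 to 3958 FPKM in 8w BM and 4202 to 4404 FPKM in 6w BM. Their part was not tested.

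8w BM against E16.5 FL set adult marrow beside late fetal liver. Hspa5, Dnajb9, Atf4, Ddit3 and Trib3 were lower and none was higher, where 40.2% of all genes were called, 20.5% higher and 19.7% lower (22.7% higher and 14.2% lower after scaling to TPM). Hspa5 had -1.0 ± 0.17, adjusted p = 7.75e-05. Dnajb9 had -0.94 ± 0.14, adjusted p = 1.19e-05, and Atf4 -0.82 ± 0.14, adjusted p = 5.57e-05. Ddit3 showed the largest fall of the 10 genes, -1.97 ± 0.32, adjusted p = 3.12e-05. Trib3 had -0.64 ± 0.24, adjusted p = 0.036, a call lost without E16.5 FL 1 (adjusted p = 0.176), 8w BM 2 (0.136) or 8w BM 3 (0.0576), without the filter (0.0612), with a pseudocount of 0.1 (0.0582) and after scaling to TPM (0.0653). Hsp90b1, Calr, Pdia4 and Pdia6 lay between -0.12 and 0.19, and Pdia4 was called higher after scaling to TPM (0.28, 0.0424). Xbp1 had 0.08 ± 0.17, adjusted p = 0.759. The medians were -0.38 over the 10 genes and 0 over all, and the groups did not overlap for 5 genes, against 52.3% of all genes. Among the other ER genes, 8 of 22 folding genes rose and 1 fell, 7 of 20 degradation genes rose and 1 fell, and 8 of 20 translocon genes rose and 2 fell. Sdf2l1, an ER chaperone cofactor, averaged 51.5 ± 10.6 FPKM in 8w BM and 25.7 ± 4.84 FPKM in E16.5 FL, and Dnajc3, a BiP cochaperone that inhibits PERK, 28.9 ± 2.97 FPKM in 8w BM and 19.1 ± 1.35 FPKM in E16.5 FL. Of the ATF4 and CHOP targets 5 of 31 rose and 8 fell, with Bcl2l11 at 13.01 ± 2.46 FPKM in 8w BM and 31.4 ± 7.28 FPKM in E16.5 FL and Asns at 11.5 ± 2.69 FPKM in 8w BM and 19.9 ± 2.43 FPKM in E16.5 FL. After scaling to TPM 13 folding genes rose and 5 of the ATF4 and CHOP targets fell. Of 13 plasma cell and B lineage genes 1 was higher and 12 were lower, with sums of 29.9 to 57.3 FPKM in 8w BM and 122 to 306 FPKM in E16.5 FL. Of 10 macrophage genes 9 were higher, with sums of 139 to 216 FPKM in 8w BM and 52.7 to 59.6 FPKM in E16.5 FL. Of 10 neutrophil genes 4 were higher and 6 were lower, with sums of 2542 to 3025 FPKM in 8w BM and 925 to 1938 FPKM in E16.5 FL. Of 18 immediate-early genes 8 were higher and 1 was lower, with sums of 3988 to 10019.7 FPKM in 8w BM and 3051 to 3473 FPKM in E16.5 FL. The part of these lists was not tested.

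**Figure D2:**
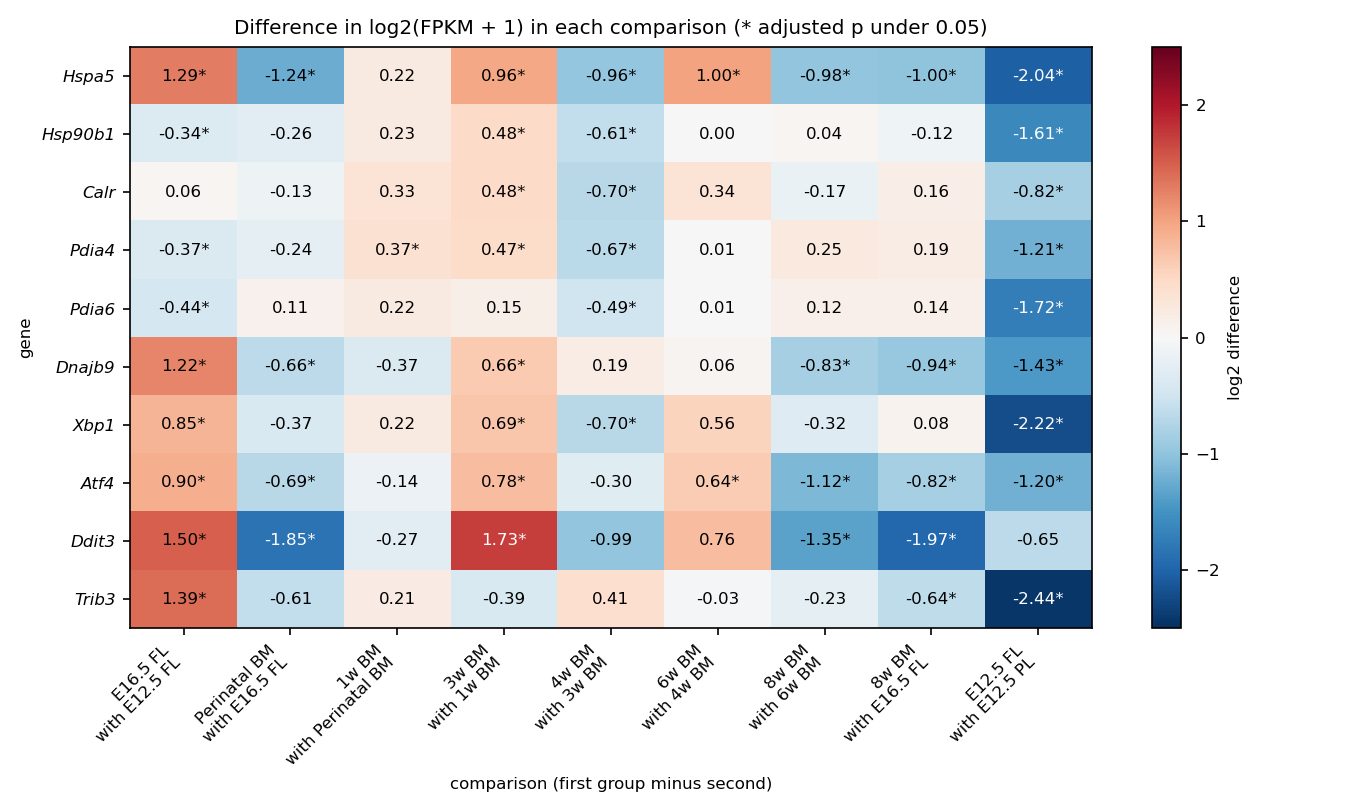
Differences in log2(FPKM + 1) of the 10 genes (rows) in the 9 comparisons (columns), with red for higher and blue for lower in the group named first and an asterisk at an adjusted p under 0.05. All 10 genes took both signs along the stages. Hsp90b1, Calr, Pdia4, Pdia6, Xbp1 and Trib3 were not called in 6w BM with 4w BM or in 8w BM with 6w BM.

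E12.5 FL against E12.5 PL compared 2 sources of the same embryonic day. In E12.5 FL 9 of the 10 genes were lower and none was higher, where 74.2% of all genes were called (33.2% higher and 41% lower). Scaling to TPM moved the median of all genes from -0.06 to 0.17 and the shares to 42.4% higher and 31.4% lower, and the same 9 genes were lower on that scale. The median difference was -1.52 over the 10 genes. Xbp1 had -2.22 ± 0.17, adjusted p = 2.86e-11. Hspa5 had -2.04 ± 0.17, adjusted p = 2.75e-10, and Hsp90b1 -1.61 ± 0.12, adjusted p = 4.78e-11. Pdia6 had -1.72 ± 0.14, adjusted p = 6.59e-11. The remaining folding genes were Calr with -0.82, Pdia4 with -1.21 and Dnajb9 with -1.43. Atf4 had -1.2 ± 0.14, adjusted p = 4.84e-08, and Trib3 -2.44 ± 0.24, adjusted p = 2.63e-09. Ddit3 had -0.65 ± 0.32, adjusted p = 0.0679, with groups that did not overlap, and in a fit of these 6 libraries alone its adjusted p was 0.000111. All 10 genes had groups that did not overlap, against 76.3% of all genes. The other ER genes were lower as well, at 21 of 22 folding genes and 19 of 20 degradation genes with none higher, and 16 of 20 translocon genes lower and 3 higher. P4hb, a disulfide isomerase that is also part of the collagen prolyl hydroxylase, averaged 183 ± 3.46 FPKM in E12.5 FL and 1068 ± 273 FPKM in E12.5 PL, and Pdia5 7.55 ± 0.725 FPKM in E12.5 FL and 129 ± 40.4 FPKM in E12.5 PL. Vimp, a membrane protein that recruits the degradation ATPase p97, averaged 27.4 ± 1.14 FPKM in E12.5 FL and 100.3 ± 15.6 FPKM in E12.5 PL. Of the ATF4 and CHOP targets 22 of 31 were lower and 5 higher, the higher ones including the serine synthesis enzymes Phgdh, with 236 ± 7.45 FPKM in E12.5 FL and 88.6 ± 9.25 FPKM in E12.5 PL, and Psat1, with 130.0 ± 2.34 FPKM in E12.5 FL and 63.1 ± 1.9 FPKM in E12.5 PL. The 10 endothelial genes summed to 292 to 317 FPKM in E12.5 FL, against 1054 to 1306 FPKM in E12.5 PL. All 10 trophoblast genes tested and 9 of the 10 endothelial genes were lower in E12.5 FL. Of the 12 stromal and hepatocyte genes 8 were lower, among them the collagen gene Col4a1 with 5.38 ± 0.429 FPKM in E12.5 FL and 3830.0 ± 1582 FPKM in E12.5 PL, and 3 were higher, among them the hepatocyte genes Alb with 4.18 ± 2.38 FPKM in E12.5 FL and 0.0305 ± 0.0528 FPKM in E12.5 PL and Afp with 6.46 ± 2.51 FPKM in E12.5 FL and 0.470 ± 0.640 FPKM in E12.5 PL. The part of these genes in the differences was not tested, and HSPC state and cell mixture cannot be told apart in that group.

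**Figure D3:**
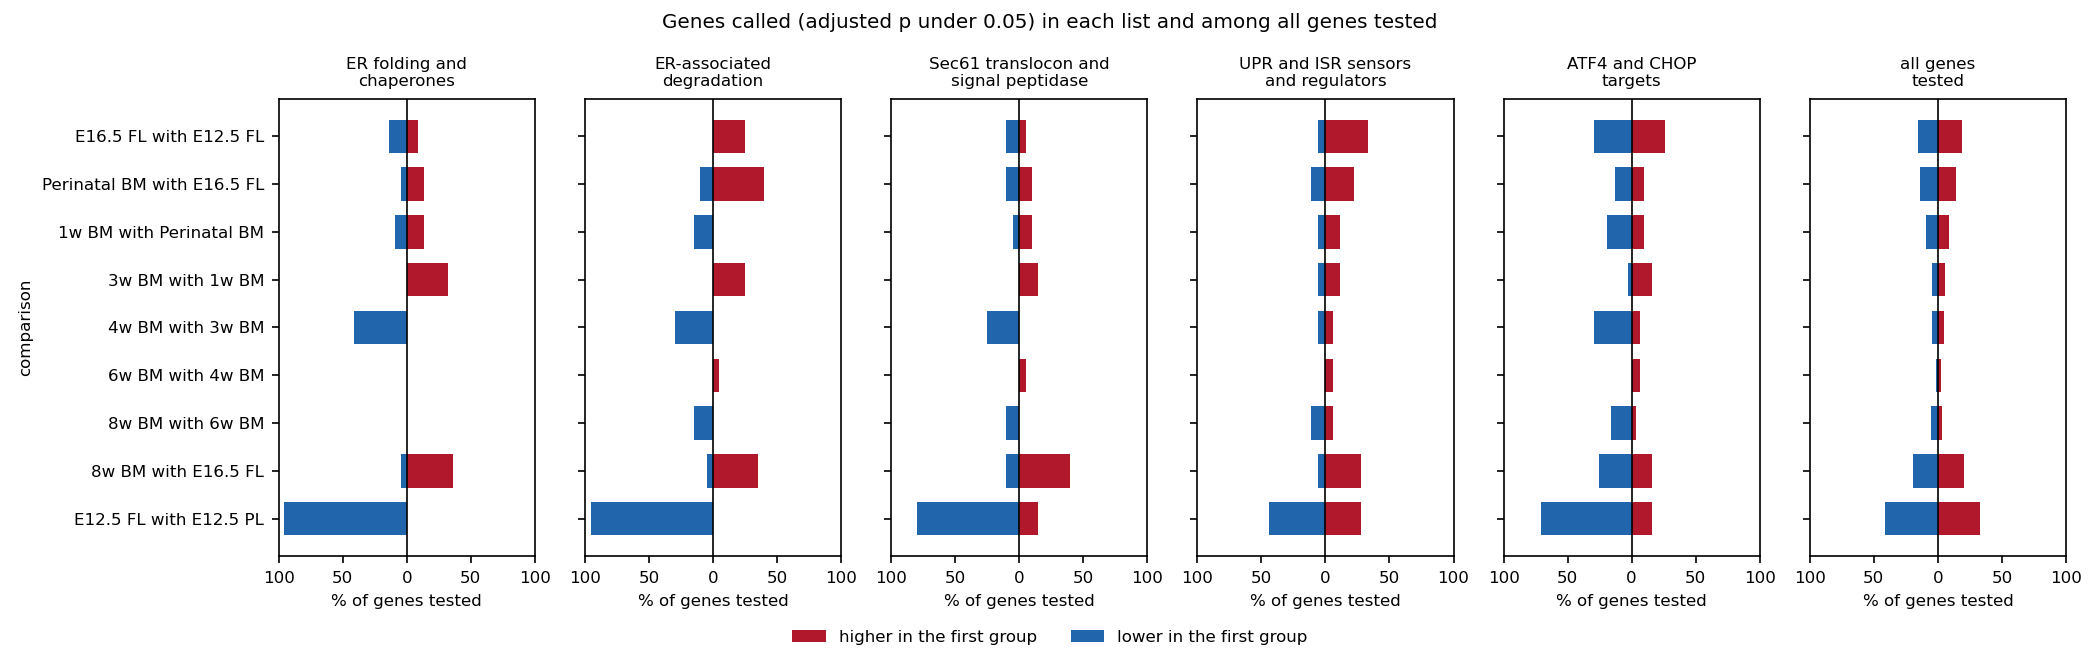
Percent of genes called higher (red, to the right) and lower (blue, to the left) in the group named first, for 5 pathway lists without the 10 genes and for all 13350 genes, in each of the 9 comparisons. The folding and degradation lists pointed to higher at 3w BM, to lower at 4w BM and almost wholly to lower in E12.5 FL with E12.5 PL.

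Across the 24 FL and BM libraries, the 10 genes fell into sets that moved alike. These sets were drawn after the values were seen, and the correlations are descriptions over libraries that share groups. Among Hspa5, Dnajb9, Xbp1, Atf4 and Ddit3, Pearson's r of log2(FPKM + 1) was 0.55 to 0.91 in 10 pairs, the highest between Hspa5 and Atf4. After subtraction of the group means it was 0.69 to 0.88, so that libraries of 1 group differed in these genes together. Among Hsp90b1, Pdia4 and Pdia6 it was 0.82 to 0.90 in 3 pairs. Between the sets r was -0.46 to 0.36 in 15 pairs, with 0.27 for Hspa5 and Hsp90b1. After subtraction of the group means r was 0.77 to 0.88 among Hsp90b1, Pdia4 and Pdia6. Between the sets it was then 0.12 to 0.57, with 0.57 for Hspa5 and Hsp90b1. Within groups the between-set values were thus all positive but below those inside either set. Adding E12.5 PL, where both sets are high, brought the between-set values to 0.12 to 0.70. Calr stood between the sets, with 0.74 to Xbp1 and 0.61 to Pdia4. Trib3 correlated at 0.61 with Dnajb9 and at -0.62 with Pdia6. The exact promoter element was in the window of Hspa5 in the first set and in those of Hsp90b1 and Pdia6 in the second. Its part in the levels was not tested.

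**Figure D4:**
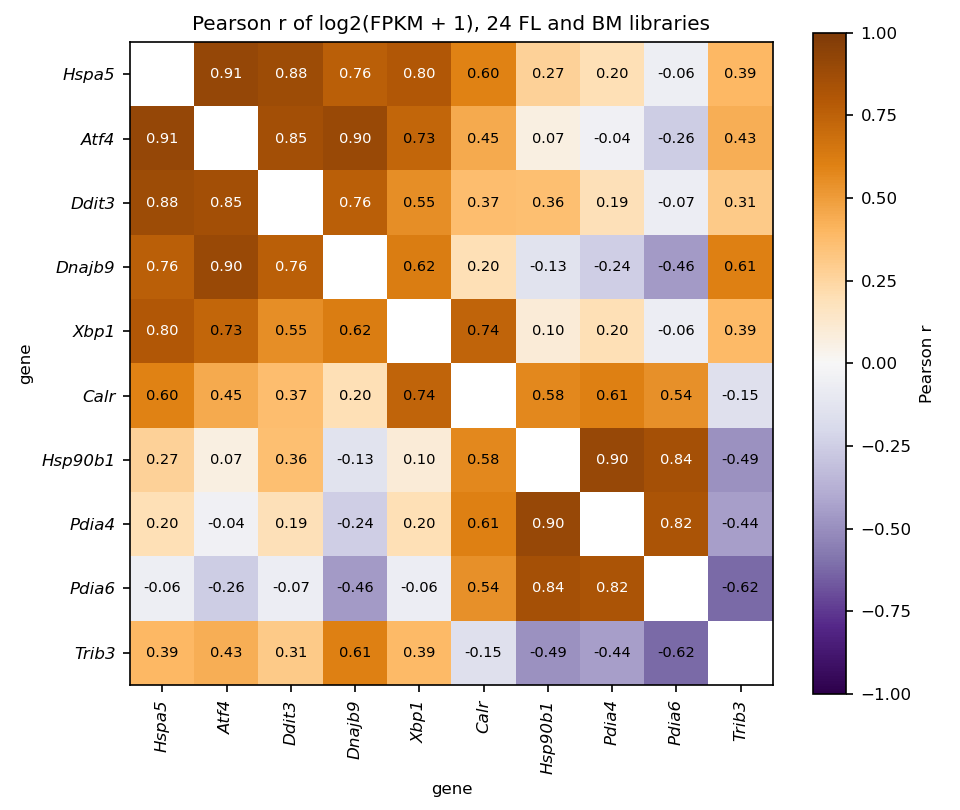
Pearson's r of log2(FPKM + 1) between the 10 genes over the 24 FL and BM libraries, from -1 (purple) to 1 (orange). A block of Hspa5, Atf4, Ddit3, Dnajb9 and Xbp1 (0.55 to 0.91) and a block of Hsp90b1, Pdia4 and Pdia6 (0.82 to 0.90) stand apart from each other over these libraries, with -0.46 to 0.36 between them.

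The ratio of Hspa5 to Hsp90b1 FPKM, chosen after the values were seen, showed the division library by library. It was 1.15, 1.51 and 1.35 in E12.5 FL and 4.5, 4.33 and 3.58 in E16.5 FL. It was 1.93, 2.19 and 2.13 in Perinatal BM, 2.01, 2.37 and 1.87 in 1w BM and 2.59, 3.11 and 2.98 in 3w BM. The E16.5 FL libraries thus held about as little Hsp90b1 per Hspa5 as those of 6w BM. In older marrow the ratio was 2.58, 2.05 and 2.19 in 4w BM, 4.35, 5.48 and 3.93 in 6w BM and 1.96, 1.97 and 2.84 in 8w BM. In E12.5 PL, where both RNAs were at their highest, it was 1.9, 1.67 and 1.81. The ratio therefore set E12.5 PL among the low groups, in contrast to the level of either gene. The libraries of E16.5 FL and of 6w BM lay above all others.

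The immediate-early genes are given beside the first set because they moved with it in part. Over the 24 FL and BM libraries their summed level correlated at r = 0.77 with Xbp1, 0.66 with Atf4, 0.60 with Dnajb9, 0.52 with Hspa5 and 0.31 with Ddit3, and at 0.44 with Calr, -0.23 with Hsp90b1 and -0.32 with Pdia6. Within groups the values were 0.71 for Hspa5, 0.65 for Dnajb9, 0.61 for Atf4, 0.58 for Xbp1 and 0.50 for Ddit3, and -0.03 for Calr. The summed level of 12 cytosolic heat shock genes correlated at 0.82 with Hsp90b1, 0.63 with Pdia4, 0.57 with Pdia6, 0.48 with Ddit3 and 0.26 with Hspa5. Within groups it correlated with both sets, at 0.77 for Hsp90b1, 0.72 for Ddit3, 0.69 for Pdia4 and 0.67 for Hspa5. The gene Atf3 stands both in the immediate-early list and among the ATF4 and CHOP targets. In E16.5 FL the Ddit3 mean was 69.3 ± 23.7 FPKM, the highest of all groups. The immediate-early sum there was 3051 to 3473 FPKM, below each library of 3w, 4w and 6w BM. The part of either list in the levels was not tested.

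**Figure D5:**
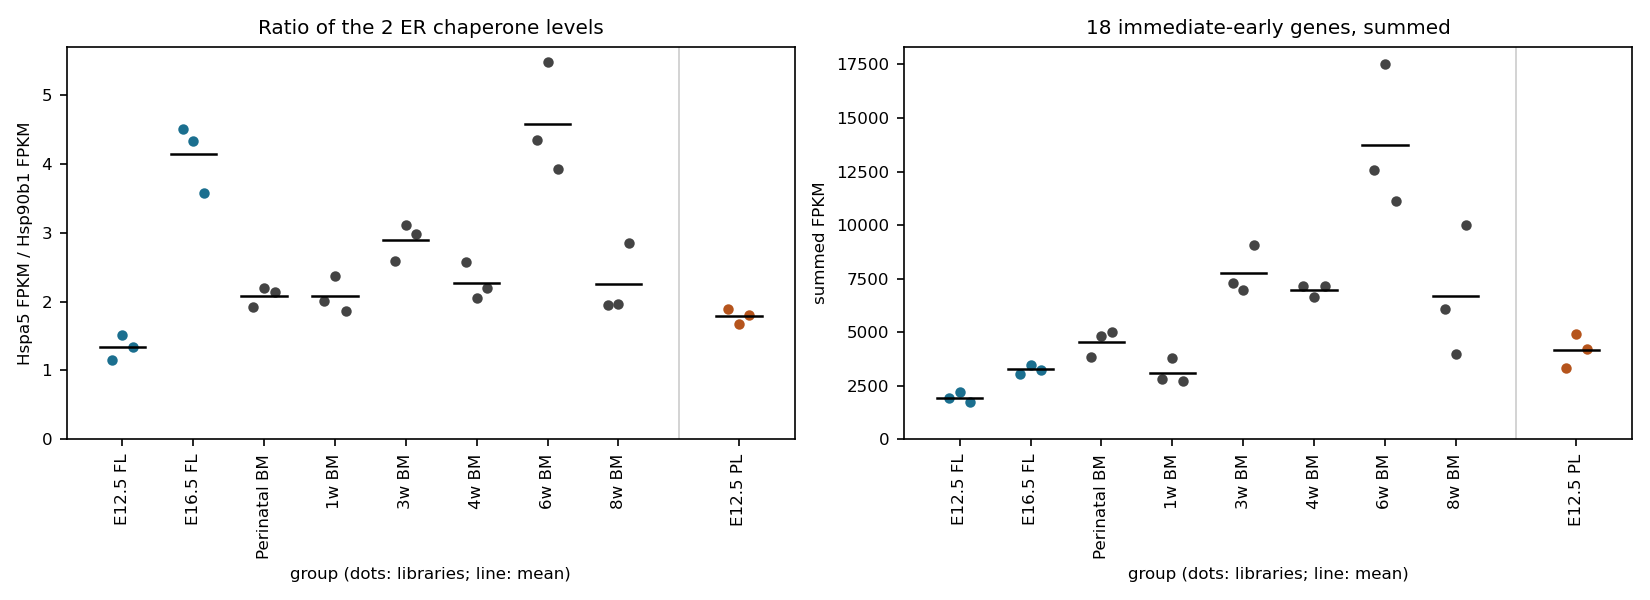
Left, the ratio of Hspa5 to Hsp90b1 FPKM, and right, the summed FPKM of 18 immediate-early genes, in each library (dots) with the group mean (line), with FL in blue, BM in grey and E12.5 PL in orange. The ratio was highest in E16.5 FL and 6w BM, while the immediate-early sum was highest in 6w BM and 3051 to 3473 FPKM in E16.5 FL.

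The genes most like Hspa5, Atf4 and Ddit3 were taken as the 3 with the highest r over the 24 FL and BM libraries among 8568 genes whose mean there reached 5 FPKM. For Hspa5 these were Ing3 (0.93), Syvn1 (0.93) and Zfand2a (0.92). With E12.5 PL included, Syvn1 and Zfand2a kept 0.95 and 0.94, whereas Ing3 had 0.39. For Atf4 they were Zfp212 (0.95), Ing3 (0.95) and Fem1c (0.94), and with E12.5 PL included these had 0.39, 0.58 and 0.57. For Ddit3 they were Golph3 (0.96), Oser1 (0.93) and Fbxo30 (0.93), with 0.86, 0.92 and 0.91 when E12.5 PL was included.

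The RNA of the sensors that start the response was low beside that of the chaperones. Ern1, the gene of IRE1, averaged 8.74 ± 1.17 FPKM in E12.5 FL, 13.2 ± 1.73 FPKM in E16.5 FL, 13.9 ± 2.96 FPKM in Perinatal BM and 13.7 ± 1.02 FPKM in 1w BM. It averaged 20.9 ± 2.55 FPKM in 3w BM, 19.95 ± 2.86 FPKM in 4w BM, 22.7 ± 2.15 FPKM in 6w BM and 26.9 ± 7.09 FPKM in 8w BM, and 6.42 ± 1.31 FPKM in E12.5 PL. Ern1 was thus lowest in E12.5 PL, where Xbp1 was highest. Atf6 averaged 12.2 ± 0.668 FPKM in E16.5 FL, 12.4 ± 0.303 FPKM in 3w BM and 12.9 ± 1.16 FPKM in 6w BM, its highest means. Hspa5 was high in these groups as well, but in E12.5 PL, where Hspa5 was highest, Atf6 was not. For E12.5 FL against E12.5 PL Atf6 had a log2 difference of 0.0136 (adjusted p = 0.896), and of 0.31 (0.0153) after scaling to TPM. The other Atf6 means lay between 10.2 and 11.6 FPKM. Before any added scaling, Atf6 was called, of the 9 comparisons, in E16.5 FL against E12.5 FL alone (log2 difference 0.23 ± 0.09, adjusted p = 0.0393). In that comparison all 3 sensor genes rose, Ern1 with 0.54 ± 0.17 (adjusted p = 0.0166) and Eif2ak3 with 0.41 ± 0.12 (adjusted p = 0.00888). The adjusted p of Atf6 was 0.0537 under the median-of-ratios scaling and 0.103 after scaling to TPM. Ern1 and Eif2ak3 were called on both of these scales too. Eif2ak3, the gene of PERK, averaged 6.27 ± 0.139 FPKM in E12.5 FL and at most 8.68 ± 0.630 FPKM elsewhere in FL and BM, against 18.9 ± 4.34 FPKM in E12.5 PL.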

How the data were processed

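Total RNA of purified HSPCs was sequenced in 27 libraries, 3 in each of 9 groups named by the labels, after extraction with Tri Pure reagent and an Illumina TruSeq RNA kit, per the labels' protocols. Tools in the submitters' processing notes are STAR 2.7, HTSeq 0.6.1p1, FastQC and Trim Galore, with the build GRCm38. Expression was deposited by the authors as FPKM, and the tool, annotation and scaling behind those values, and whether counting used strand, are unknown from the labels. FPKM can be moved by a few abundant genes, so a TPM scaling and a median-of-ratios scaling (factors 0.991 to 1.02) were tried.

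Values were taken as log2(FPKM + 1), with a pseudocount of 1. The 13350 genes that reached an FPKM of 1 in 3 or more libraries were fitted with limma 3.58.1 in R 4.3.3 (lmFit, eBayes with a trend), with 1 mean per group over all 27 libraries and 18 degrees of freedom for the residuals. Benjamini-Hochberg adjustment ran over all genes of a comparison, with a threshold of 0.05. Depth is unknown, so no counting interval is given. The fit was tested on simulated data. Motifs were searched in RefSeq promoter windows with Python 3.11.15 and numpy 2.4.6, and figures used matplotlib 3.10.9. The members and gene lists were chosen with earlier results of these data known. All 10 members are named, with, in each list and comparison, up to 2 of the called genes with the smallest adjusted p in each direction, of which some are printed. Protein sequences were not used here. As alternatives, the pseudocount was set to 0.1, the filter was dropped or raised to an FPKM of 5, and both scalings were applied. Others were a fit of just the 6 libraries of a comparison, one without E12.5 PL, a block for the replicate number, and each library of a comparison left out in turn. Both scalings were applied to the pathway lists and sensor genes too, a choice made after seeing the data.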

Additional observations from a re-analysis of the deposited data

How the results depend on the processing

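The 9 counts of called genes among the 10 were within 1.5 times their value under a pseudocount of 0.1, a filter at an FPKM of 5, the median-of-ratios scaling, the fit without E12.5 PL and the replicate block. For 1w BM with Perinatal BM the count of 1 became 0 without the filter and 2 after scaling to TPM. For 8w BM with 6w BM the count of 4 became 1 in the fit of only the 6 libraries compared. With 1 library left out, the count was 0 to 1 in 1w BM with Perinatal BM, 5 to 8 in 3w BM with 1w BM, 4 to 7 in 4w BM with 3w BM, 1 to 3 in 6w BM with 4w BM, 3 to 5 in 8w BM with 6w BM, 4 to 5 in 8w BM with E16.5 FL, 6 to 9 in E16.5 FL with E12.5 FL, 4 to 5 in Perinatal BM with E16.5 FL and 9 in each fit for E12.5 FL against E12.5 PL. The causes were not tested. Of 540 single-gene values with a library left out, 475 kept direction and call, 38 lost the call, 5 gained it and 22 changed sign.

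None of the values that changed sign had been called. In 6w BM with 4w BM, Hsp90b1 had -0.0073 under the median-of-ratios scaling and -0.0428 after scaling to TPM, Pdia4 -0.0026 and -0.0379, and Pdia6 had -0.0307 after scaling to TPM. With 1 library left out, values in that comparison ran from -0.0995 to 0.1684 for Hsp90b1, -0.0618 to 0.0874 for Pdia4, -0.076 to 0.191 for Pdia6, -0.0033 to 0.0993 for Dnajb9 and -0.2804 to 0.1685 for Trib3. They ran from -0.0568 to 0.1845 for Calr in E16.5 FL with E12.5 FL, -0.5205 to 0.047 for Ddit3 and -0.0002 to 0.4558 for Trib3 in 1w BM with Perinatal BM, -0.058 to 0.1114 for Hsp90b1 in 8w BM with 6w BM, and -0.14 to 0.2325 for Xbp1 in 8w BM with E16.5 FL.

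The replicate numbers did not pair the libraries: residuals of libraries with the same number correlated at -0.205 to 0.227, with a median of -0.011 against -0.003 for different numbers, and 8 of 27 libraries were closest to their own number. A replicate block left the call of all 90 gene and comparison values as it was. Among 18 sensors and regulators in E12.5 FL against E12.5 PL, 5 were higher and 8 lower, against 10 higher and 7 lower after scaling to TPM. The median difference of that list changed sign too, from -0.1107 to 0.1953 after scaling to TPM. Other list counts moved by over 1.5 times: in E16.5 FL with E12.5 FL 5 folding genes in place of 3 were lower under either scaling, and after scaling to TPM 5 folding genes and 5 ATF4 and CHOP targets in place of 3 each rose in 1w BM with Perinatal BM, and 4 translocon genes in place of 2 in Perinatal BM with E16.5 FL. The medians of the sensor list in 1w BM with Perinatal BM, 4w BM with 3w BM and Perinatal BM with E16.5 FL, and of the translocon genes and the ATF4 and CHOP targets in 6w BM with 4w BM, were within 0.1 of 0 and changed sign after scaling to TPM. With 3 libraries a group and an unknown depth, the precision is limited to the SE printed, and low levels such as those of Trib3 depend on the pseudocount.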

Other observations

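The ratio of Ddit3 to Atf4 FPKM, chosen after the values were seen, compares the RNA of CHOP with that of the factor upstream of it. It was 0.131, 0.133 and 0.120 in E12.5 FL and 0.230, 0.196 and 0.171 in E16.5 FL. In marrow it was 0.0786, 0.0605 and 0.127 in Perinatal BM, 0.0592, 0.0956 and 0.0783 in 1w BM, 0.145, 0.196 and 0.130 in 3w BM, 0.0957, 0.118 and 0.0733 in 4w BM, 0.0799, 0.146 and 0.0958 in 6w BM and 0.0826, 0.0749 and 0.101 in 8w BM. E12.5 PL had 0.0945, 0.0837 and 0.0875. The mean ratio was highest in E16.5 FL and 3w BM, which overlapped, while 6w BM, with Atf4 at its highest in marrow, had a ratio that overlapped those of 3w, 4w and 8w BM. No test was made, and the overlap of Ddit3 exons with Mars and Gm4189 limits the ratio.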
